A study of Homo sapiens with 8 samples.

Results

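A set of 40 genes of the ATF4 response and of amino acid supply were followed in HSC-5 cells, a human line of cutaneous squamous cell carcinoma, after Cas9 had been directed to EZH2. They are ATF4 and its partner transcription factors, and effectors and feedback genes of the stress response. Others are enzymes that make serine, asparagine, proline and one-carbon units, and AARS1, which charges tRNA. The rest are amino acid carriers and chaperone genes of the endoplasmic reticulum. The members were taken by symbol from a list that was chosen with earlier results of these data known. All 40 were found among the 20294 genes of the count table. Of these, 38 passed the filter on low counts and were tested, and SLC7A7 and SLC38A5 did not pass.

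All cells of the study stably carried Cas9 from a lentivirus and were grown in DMEM with serum. The control group received an empty vector (2 libraries), and the other groups received the guide RNA sgEZH2-1 (3 libraries) or sgEZH2-2 (3 libraries). Cells that took up a guide were selected with G418, and loss of the EZH2 protein was checked by the authors with a western blot, which is not analysed here. The labels do not say whether libraries came from separate cultures or clones, so the p-values below reflect only how much these libraries vary, which may be technical. A further control library had been set aside by the authors because it clustered apart, and it was not analysed here. Library totals ran from 12607952 to 15468597 counts.

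ATF4 is a transcription factor whose protein is made from a waiting mRNA when kinases that sense amino acid shortage, unfolded protein or other stress phosphorylate the translation factor eIF2. It binds composite elements with C/EBP partners and turns on genes for amino acid uptake and synthesis, for charging tRNAs, and for shutting the response off again. Because much of this control lies in translation, the level of the ATF4 transcript is not a measure of the ATF4 protein. Many carcinoma cells take up large neutral amino acids through SLC7A5 with SLC3A2, and cystine through SLC7A11.

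EZH2 itself had 83.4 ± 0.976 CPM (SD, n = 2; counts per 1000000, on scaled library totals) in control cells. Its level was 53.6 ± 4.80 CPM (SD, n = 3) under sgEZH2-1 and 68.9 ± 4.50 CPM (SD, n = 3) under sgEZH2-2. The adjusted p (edgeR's quasi-likelihood test with Benjamini-Hochberg adjustment over all tested genes, as for every adjusted p here) was 0.000529 with sgEZH2-1 and 0.0699 with sgEZH2-2, so the transcript was called lower only with sgEZH2-1. The 10 keratinocyte markers summed to 3540 to 3650 CPM in control, 3240 to 3500 in sgEZH2-1 and 3000 to 3070 in sgEZH2-2 cells, led by KRT5, while KRT14 was nearly absent at 0.474 CPM in the controls. Of the 10, 4 were called with sgEZH2-1 and 3 with sgEZH2-2. Over all tested genes, 11.3% were called higher and 9.51% lower with sgEZH2-1, and 6.18% and 2.5% with sgEZH2-2. The 4 markers called with sgEZH2-1 did not go in 1 direction. With sgEZH2-1, TP63 was at 49.5% of control (adjusted p = 1.27e-05), and KRT16, KRT17 and KRT6A were at 212%, 176% and 130% (adjusted p = 0.000359, 0.00581 and 0.0131). With sgEZH2-2, KRT5, DSG3 and PKP1 were at 77.8%, 81.2% and 80.8% (adjusted p = 0.00727, 0.0212 and 0.0112). The 7 fibroblast markers, of which only COL1A1 passed the filter and COL1A2 had no count, summed to 5.93 to 7.24 CPM in control, 4.56 to 8.75 in sgEZH2-1 and 11 to 13.8 in sgEZH2-2 cells. Among 5 leukocyte markers CD3E had no count, and the 5 summed to 10.4 to 15.8 CPM. Of 4 endothelial markers CDH5 carried nearly the whole sum. It was at 177, 77.3 and 149 CPM in control, sgEZH2-1 and sgEZH2-2 cells, beside PECAM1 at 0.791 CPM in the controls. Of 4 melanocyte markers TYR and DCT had no count, and the list summed to at most 4.09 CPM. The part of such differences in the results on the members was not tested. In bulk samples such as these, fewer cells of a type and less RNA per cell cannot be told apart.

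Per kilobase of exon, the members spanned more than 4 orders of magnitude in the control cells. This scale compares genes with each other only roughly. The length joins the exons of all annotated transcripts of a gene and can exceed that of the mRNA made. SLC7A5, the light chain of the large neutral amino acid exchanger, was the most abundant at 401 CPM per kilobase. DDIT4, HSP90B1 and HSPA5 followed at 343, 260 and 220, and ATF4 was next at 147. The heavy chain gene SLC3A2 stood at 139, the serine synthesis gene PSAT1 at 98.4 and the glutamine carrier gene SLC1A5 at 88.8. At the lower end, VLDLR was at 0.116, SLC7A7 at 0.0260, SLC38A5 at 0.0163 and SLC7A2 at 0.00862 CPM per kilobase.

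**Figure D1:**
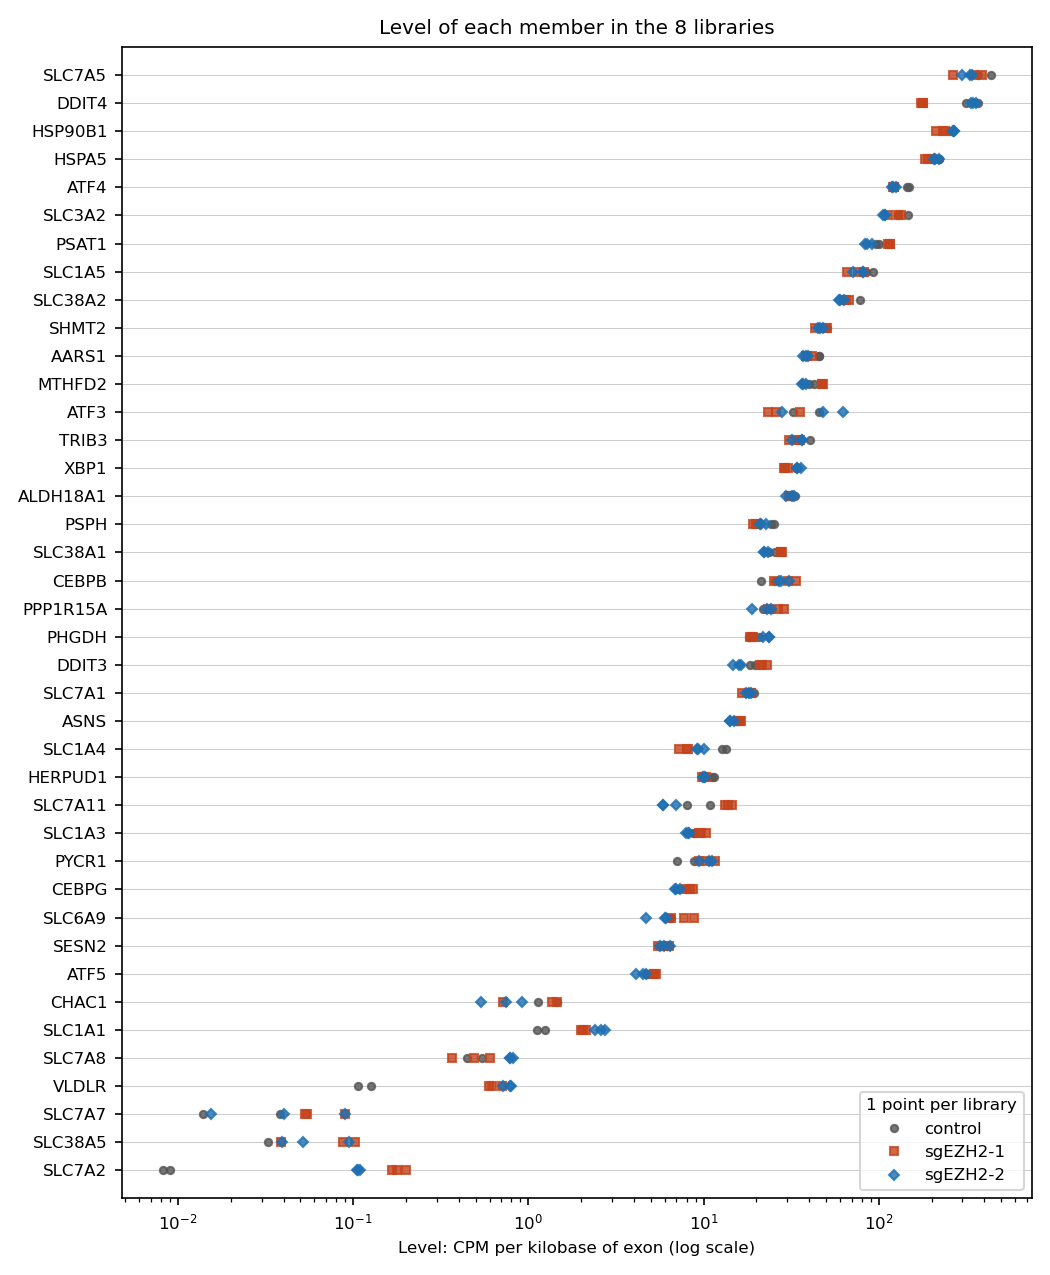
Level of the 40 members in each of the 8 libraries, in CPM per kilobase of exon on a log axis, ordered by the control mean, with 1 point per library and groups marked by colour and shape (a library with no count is not drawn). The members run from SLC7A5 at 401 to SLC7A2 at 0.00862 in the control mean, DDIT4 is lower in the sgEZH2-1 libraries than in all others, and VLDLR and SLC7A2 lie higher in every guide library than in either control.

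With sgEZH2-1 against control, 8 of the 38 tested members rose and 8 fell (21.1% each), where 11.3% of all 13124 tested genes rose and 9.51% fell. With sgEZH2-2, 4 rose and 5 fell (10.5% and 13.2%), against 6.18% and 2.5% of all genes. Both comparisons use the same 2 control libraries. Since the members were chosen with earlier results of these data known, the shares describe the list and are no test of it. The median log2 fold change of the tested members was -0.030 with sgEZH2-1 and -0.099 with sgEZH2-2, beside -0.0094 and 0.00091 over all tested genes, so members moved in both directions and not as a block. VLDLR, SLC1A1 and SLC7A2 rose with each guide, and ATF4, AARS1 and SLC1A4 fell with each. SLC7A11 rose with one guide and fell with the other. SLC7A2 passed the filter only through the guide libraries, so its rise follows in part from being tested.

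**Figure D2:**
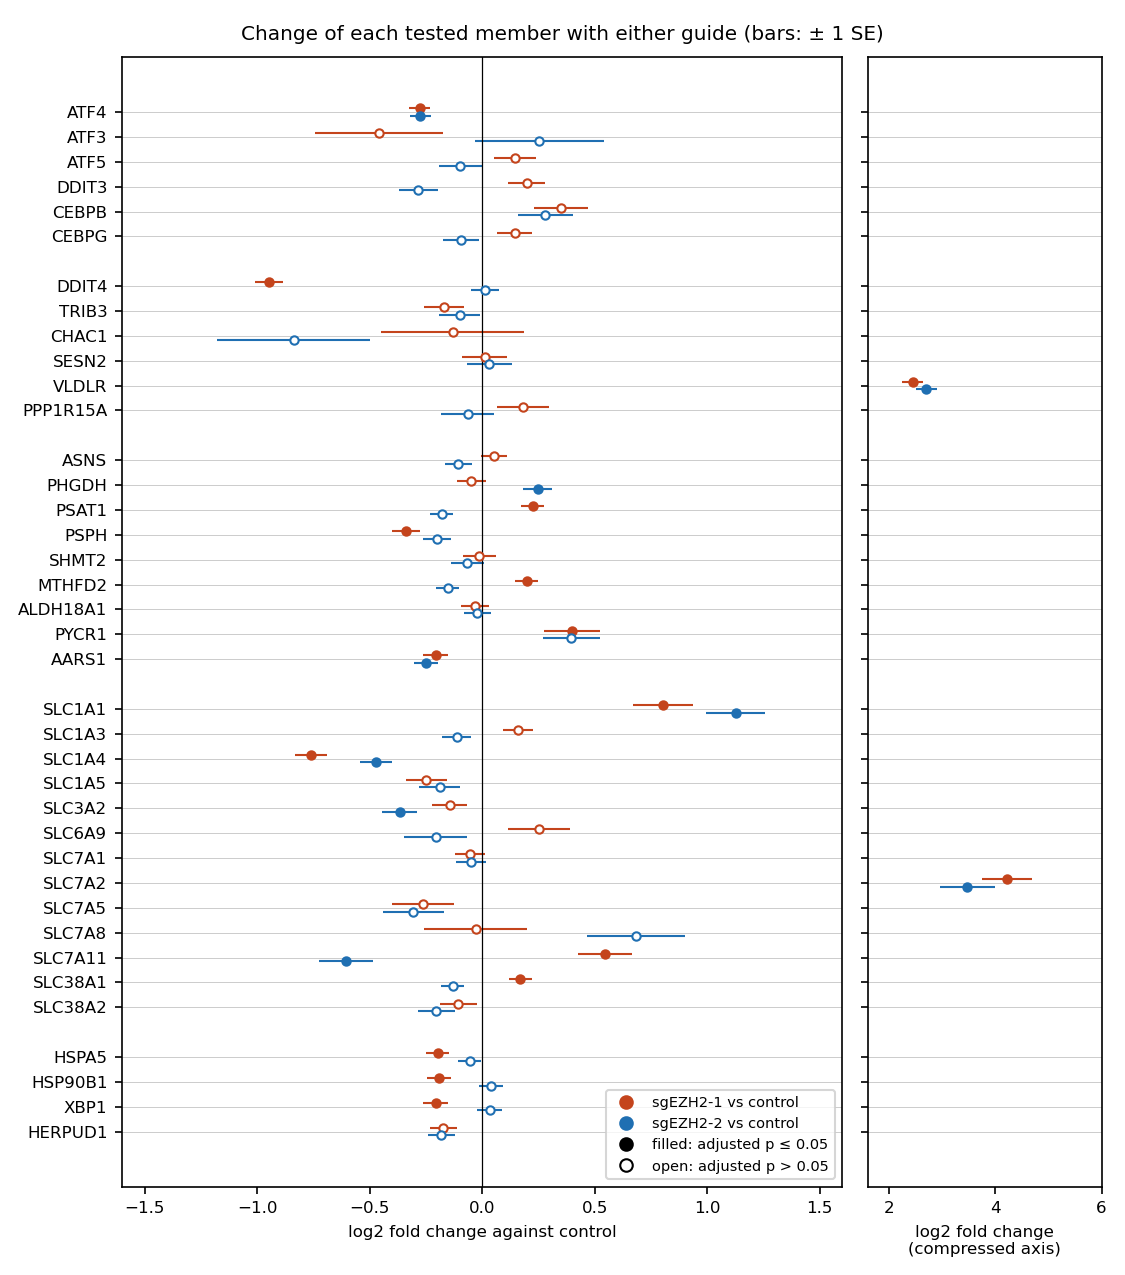
log2 fold change against control of the 38 tested members with sgEZH2-1 (red) and sgEZH2-2 (blue), with bars of 1 SE on either side and filled points where the adjusted p was at most 0.05; rows are grouped as regulators, effectors, synthesis, carriers and endoplasmic reticulum genes, and the right panel has a compressed axis for VLDLR and SLC7A2. ATF4, AARS1 and SLC1A4 lie below 0 with both guides, and the colours lie on opposite sides of 0 for SLC7A11, PSAT1 and MTHFD2.

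Among the 6 regulators, ATF4 was the only one that fell or rose against control with either guide. As a share of the 6 genes, 16.7% were thus called lower with each guide, against 9.51% of all genes with sgEZH2-1 and 2.5% with sgEZH2-2. The ATF4 level was 376 and 364 CPM in the controls, 306, 307 and 302 with sgEZH2-1, and 302, 299 and 316 with sgEZH2-2. All 6 guide libraries lay below both controls. The log2 fold change was -0.28 with sgEZH2-1 (SE 0.046, adjusted p = 0.00209) and -0.27 with sgEZH2-2 (SE 0.046, adjusted p = 0.00467), which left 82.5% and 82.6% of the control level. Without the first control library the call with sgEZH2-2 was lost (adjusted p = 0.0556). The guides differed by -0.0030 on the log2 scale (SE 0.042), the smallest difference between them among the 38 tested members. ATF4 lies on chromosome 22 (39519695 to 39522685, plus strand, GRCh38) and has 4 named pseudogenes in the annotation.

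DDIT3, which encodes the death-promoting factor CHOP, went opposite ways in the guides without a call against control. It was at 25.8 and 24.0 CPM in the controls, 30.0, 27.4 and 28.2 with sgEZH2-1, and 21.5, 20.7 and 19.1 with sgEZH2-2. The 3 groups did not overlap, with the controls in the middle. The log2 fold change was 0.20 (adjusted p = 0.123) and -0.28 (adjusted p = 0.0699), and the difference between the guides was 0.48 (SE 0.076, adjusted p = 0.00200). Exons of MARS on the other strand cover part of DDIT3, where overlapping genes make up 31.6% of its exon bases, and the strand setting of the counting is not given, so its count is uncertain.

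CEBPG, a C/EBP partner of ATF4, was at 31.3 and 35.0 CPM in the controls, 34.9, 38.2 and 36.8 with sgEZH2-1, and 32.2, 30.1 and 30.8 with sgEZH2-2. The sgEZH2-1 libraries overlapped the controls and lay above all sgEZH2-2 libraries, with a difference of 0.24 (adjusted p = 0.0373). That call was lost in 5 of the 8 fits that left out 1 library, each of them a guide library other than the first sgEZH2-1 library, with adjusted p from 0.0509 to 0.138. CEBPB, another such partner, was at 50.1 and 41.4 CPM in the controls, 49.6, 59.6 and 65.5 with sgEZH2-1, and 52.5, 59.9 and 54.4 with sgEZH2-2. Neither its value of 0.35 for sgEZH2-1 (adjusted p = 0.0677) nor that of 0.28 for sgEZH2-2 (adjusted p = 0.202) passed. Without the first sgEZH2-1 library, the lowest of its group, the value for sgEZH2-1 was 0.45 (adjusted p = 0.0117).

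ATF5, a relative of ATF4 translated by the same route, was at 14.0 and 14.1 CPM in the controls, 15.3, 15.8 and 15.5 with sgEZH2-1, and 12.2, 13.4 and 13.8 with sgEZH2-2. Neither comparison with control passed (adjusted p = 0.306 and 0.603), although the groups did not overlap. ATF3, an immediate stress factor, varied most between libraries of a group. It was at 183 and 131 CPM in the controls, 105, 144 and 94.0 with sgEZH2-1, and 253, 114 and 194 with sgEZH2-2. The highest and the lowest sgEZH2-2 library thus lay on either side of both controls, and no comparison passed (adjusted p = 0.289, 0.661 and 0.0724 for sgEZH2-1, sgEZH2-2 and the guides against each other). Without the second sgEZH2-2 library the guides differed by -0.97 (adjusted p = 0.0126).

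Of the 6 effectors and feedback genes, DDIT4 and VLDLR changed. With sgEZH2-1, 1 rose and 1 fell (16.7% each), against 11.3% and 9.51% of all genes. With sgEZH2-2, 1 rose (16.7%) and 0 fell, against 6.18% and 2.5%. DDIT4 encodes an inhibitor of mTORC1, the kinase complex that couples amino acid supply to growth. It was at 758 and 652 CPM in the controls, 367, 370 and 359 with sgEZH2-1, and 694, 734 and 706 with sgEZH2-2. The sgEZH2-1 libraries stood far below all others, and the sgEZH2-2 libraries lay within the range of the controls. Its log2 fold change was -0.95 with sgEZH2-1 (SE 0.062, adjusted p = 6.37e-06), or 51.9% of control, and 0.014 with sgEZH2-2 (SE 0.062, adjusted p = 0.929). The difference between the guides was -0.96 (SE 0.056, adjusted p = 5.80e-06). DDIT4 (chromosome 10, 72273920 to 72276036, plus strand) shares 41.2% of its exon bases with an antisense RNA, so reads of the pair may not have been told apart. This call, and the fall with sgEZH2-1, held without any single library.

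VLDLR, a receptor for very low density lipoprotein, rose with both guides from a low level. It was at 0.994 and 1.17 CPM in the controls, 6.64, 5.54 and 5.81 with sgEZH2-1, and 6.70, 7.32 and 7.40 with sgEZH2-2. Every guide library was well above both controls. It rose by a log2 fold change of 2.45 with sgEZH2-1 (SE 0.20, adjusted p = 2.29e-05) and 2.70 with sgEZH2-2 (SE 0.19, adjusted p = 3.01e-05), or 553% and 658% of control. The guides differed by -0.25 (adjusted p = 0.194). The rise with each guide held without any single library. VLDLR lies on chromosome 9 (2621834 to 2660053, plus strand).

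The other 4 genes of the group were not called in these comparisons. TRIB3, a pseudokinase that restrains ATF4, had log2 fold changes of -0.17 and -0.10 with sgEZH2-1 and sgEZH2-2 (adjusted p = 0.211 and 0.562). Its libraries ran from 118 to 139 CPM in the controls and from 106 to 125 with the guides. PPP1R15A, the stress-induced subunit that returns eIF2 to its unphosphorylated form, was at 75.8 and 67.1 CPM in the controls, 71.7, 88.5 and 82.6 with sgEZH2-1, and 70.8, 58.6 and 75.4 with sgEZH2-2. The controls overlapped both guide groups. Without the first sgEZH2-1 library the guides differed by 0.33 (adjusted p = 0.0458). CHAC1, a glutathione-degrading enzyme gene and a sensitive ATF4 target, was at 2.34 and 3.0 CPM in the controls, 1.47, 2.80 and 3.01 with sgEZH2-1, and 1.10, 1.89 and 1.53 with sgEZH2-2. All sgEZH2-2 libraries were below both controls, at a log2 fold change of -0.84 with a wide error (SE 0.34, adjusted p = 0.172). The guides differed by 0.71 (adjusted p = 0.132), and by 0.96 without the first sgEZH2-1 library (adjusted p = 0.0328). SESN2, which encodes a leucine-sensing inhibitor of mTORC1, had 0.011 and 0.031 (SE 0.10 each; adjusted p = 0.952 and 0.898).

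**Figure D3:**
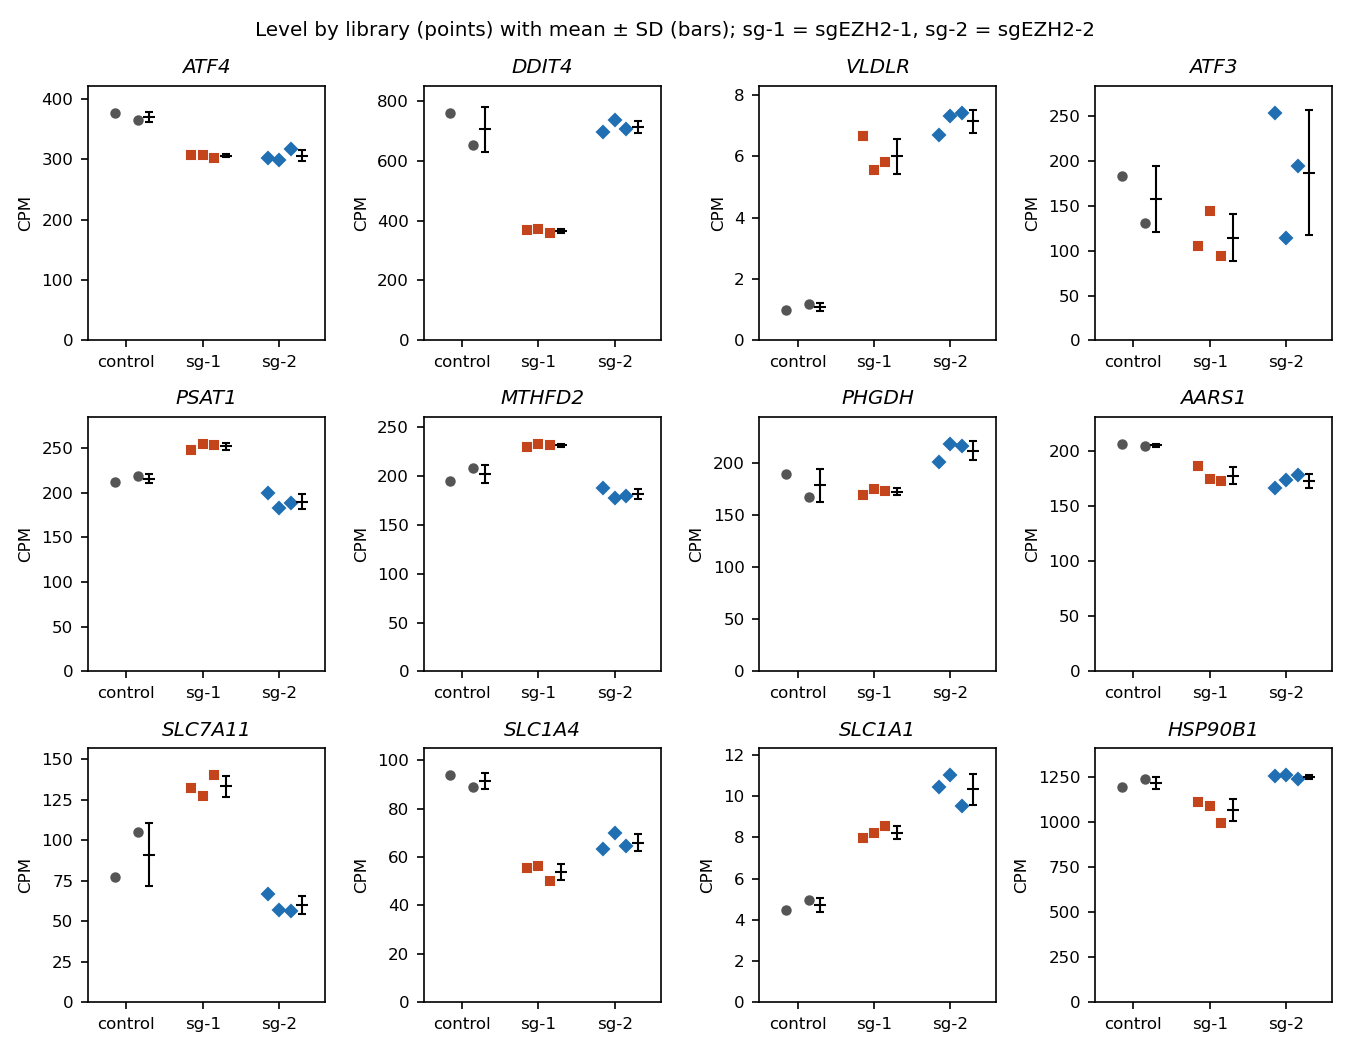
Level in CPM of 12 members in each library (points) with the mean and SD of each group (bars), on axes that start at 0. ATF4, AARS1 and SLC1A4 are lower and VLDLR and SLC1A1 higher in every guide library than in either control; DDIT4 is low in sgEZH2-1 cells only; ATF3 overlaps between groups.

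The composite element at which ATF4 binds with a C/EBP partner reads TGATGNAA (N for any base). It was searched on both strands of the RefSeq promoters (GRCh38.p14; 250 bases before to 50 bases after the start), which covered 35 of the 40 members. It was found in 9 of these 35 (25.7%) and in 3.67% of all 27305 promoters. The members were listed as genes of the ATF4 response and of amino acid supply, so these shares are no test of the element. The lines that follow show it in capitals in the 6 members that hold it wholly before the RefSeq start. They are on the strand of the gene, with up to 20 bases on either side. TTGCATCA is the same element read on the other strand.
ASNS: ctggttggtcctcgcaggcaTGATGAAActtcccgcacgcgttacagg
AARS1: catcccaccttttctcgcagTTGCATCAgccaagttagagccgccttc
ATF3: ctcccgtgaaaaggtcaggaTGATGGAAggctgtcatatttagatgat
CHAC1: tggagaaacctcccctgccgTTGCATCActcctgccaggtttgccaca
HERPUD1: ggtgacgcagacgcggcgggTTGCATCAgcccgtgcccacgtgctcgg
SLC1A3: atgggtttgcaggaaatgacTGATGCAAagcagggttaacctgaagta

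These stretches are chr7:97872449-97872496 on the minus strand for ASNS, where the element starts 68 bases before the RefSeq start, and chr16:70289666-70289713 on the minus strand for AARS1, where it starts 187 bases before. Those on the plus strand are chr1:212565196-212565243 for ATF3 (191 bases before), chr15:40953242-40953289 for CHAC1 (209), chr16:56931946-56931993 for HERPUD1 (176) and chr5:36596348-36596395 for SLC1A3 (220). SLC38A1, SLC3A2 and SLC7A1 hold the letters across or after the RefSeq start. The GENCODE annotation used for gene positions sets other limits. By those, the stretches of ASNS and CHAC1 lie inside the gene, and SLC1A3 starts only at 36606355. Of the 6 genes shown, AARS1 was called lower with each guide. The other 5, ASNS included, had no call against control with either guide. Of those not shown, SLC38A1 was called higher with sgEZH2-1 and SLC3A2 lower with sgEZH2-2, and SLC7A1 had no call. A match of letters is a description and not a site.

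Of the 9 genes grouped as amino acid synthesis, 3 rose and 2 fell with sgEZH2-1, and 1 rose and 1 fell with sgEZH2-2. As shares these are 33.3% and 22.2%, and 11.1% each, against 11.3% and 9.51%, and 6.18% and 2.5% of all genes. The group includes AARS1, which charges tRNA and makes no amino acid. AARS1 was the fall with sgEZH2-2, and the falls with sgEZH2-1 were AARS1 and PSPH. The 3 steps of serine synthesis did not move together. PHGDH, the first enzyme, was at 190 and 168 CPM in the controls, 170, 176 and 174 with sgEZH2-1, and 202, 218 and 216 with sgEZH2-2. The sgEZH2-2 libraries lay above all others. PHGDH rose with sgEZH2-2 (log2 fold change 0.25, SE 0.064, adjusted p = 0.0399) and was at -0.049 with sgEZH2-1 (adjusted p = 0.634). Between the guides the difference was -0.29 (adjusted p = 0.00550).

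PSAT1, the aminotransferase of the next step, showed the reverse order. It was at 212 and 219 CPM in the controls, 247, 254 and 253 with sgEZH2-1, and 199, 182 and 188 with sgEZH2-2. The 3 groups did not overlap. It rose with sgEZH2-1 (0.22, SE 0.052, adjusted p = 0.0128), and with sgEZH2-2 it was at -0.18 (adjusted p = 0.0598). The guides differed by 0.41 (SE 0.047, adjusted p = 0.000314). PSPH, the phosphatase of the last step, was at 67.4 and 70.0 CPM in the controls, 52.7, 55.5 and 55.0 with sgEZH2-1, and 62.5, 58.4 and 58.4 with sgEZH2-2. It was lower in all guide libraries than in both controls, and fell with sgEZH2-1 (-0.34, SE 0.063, adjusted p = 0.00416). Its value with sgEZH2-2 was -0.20 (adjusted p = 0.0803).

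MTHFD2, a mitochondrial enzyme that uses the one-carbon units made from serine, followed the pattern of PSAT1. It was at 195 and 208 CPM in the controls, 230, 233 and 232 with sgEZH2-1, and 188, 178 and 180 with sgEZH2-2. Again the 3 groups did not overlap. It rose with sgEZH2-1 (0.20, adjusted p = 0.0205), was at -0.15 with sgEZH2-2 (adjusted p = 0.0965) and differed by 0.35 between the guides (SE 0.045, adjusted p = 0.000660). SHMT2, which releases those units from serine in the same organelle, was at -0.013 and -0.065 with sgEZH2-1 and sgEZH2-2 (adjusted p = 0.927 and 0.666).

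AARS1, the alanyl-tRNA synthetase gene, was at 206 and 204 CPM in the controls, 186, 174 and 172 with sgEZH2-1, and 166, 173 and 178 with sgEZH2-2. All guide libraries were below both controls. It fell with sgEZH2-1 (-0.21, SE 0.055, adjusted p = 0.0235) and with sgEZH2-2 (-0.25, SE 0.055, adjusted p = 0.0198), and the guides differed by 0.042 (adjusted p = 0.567). PYCR1, the last enzyme of proline synthesis, rose with sgEZH2-1 (0.40, SE 0.12, adjusted p = 0.0449) and had the same value with sgEZH2-2 (0.40, SE 0.12, adjusted p = 0.0809). ALDH18A1, the first enzyme of that route, was at -0.032 and -0.022 (adjusted p = 0.756 and 0.875). ASNS, which makes asparagine and is a standard readout of ATF4, was at 70.3 and 68.0 CPM in the controls, 70.4, 72.4 and 72.3 with sgEZH2-1, and 63.1, 62.9 and 66.7 with sgEZH2-2. Its log2 fold changes were 0.052 and -0.11 (SE 0.059 each; adjusted p = 0.580 and 0.330). ASNS shares 44.6% of its exon bases with a transcript on the same strand, which no strand setting would separate, and has 4 named pseudogenes, so its count is uncertain.

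Several of the calls among the genes grouped as synthesis depended on single libraries. Without the first control, PSAT1 (adjusted p = 0.0857) and MTHFD2 (0.147) lost their calls with sgEZH2-1, and MTHFD2 also without the second sgEZH2-1 library (0.0602). PHGDH lost its call with sgEZH2-2 without the second control (0.220), the second sgEZH2-1 library (0.0585), or the second or the third sgEZH2-2 library (0.130 and 0.129). For AARS1 with sgEZH2-1 this held without either control (0.137 and 0.0637) and without the second or the third library of that guide (0.117 and 0.0876). With sgEZH2-2 it held for AARS1 without either control (0.127 and 0.0795), the second sgEZH2-1 library (0.0567), or the first or second sgEZH2-2 library (0.0893 and 0.0617). PYCR1 kept its call only without the first control, the first sgEZH2-1 library or the first sgEZH2-2 library. Its adjusted p reached 0.253 without the second control, where the log2 fold change was 0.25. The calls of PSPH with sgEZH2-1, and of PHGDH, PSAT1 and MTHFD2 between the guides, held without any single library. MTHFD2 shares 33.2% of its exon bases with genes on the other strand and has 7 named pseudogenes, and PSAT1 has 4, so their counts are less certain. The same holds for PYCR1, which shares 14.1% of its exon bases with a gene on its strand and 15.6% with an antisense gene.

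Of the 15 carrier genes, 13 were tested: 4 rose and 1 fell with sgEZH2-1, and 2 rose and 3 fell with sgEZH2-2. As shares these are 30.8% and 7.69% with sgEZH2-1, against 11.3% and 9.51% of all genes, and 15.4% and 23.1% with sgEZH2-2, against 6.18% and 2.5%. The rises include SLC7A2, tested only through the guide libraries. SLC7A11, the cystine and glutamate exchanger that feeds glutathione synthesis, was the member that moved in opposite directions with a call on each side. It was at 77.4 and 105 CPM in the controls, 132, 128 and 140 with sgEZH2-1, and 66.7, 56.8 and 56.6 with sgEZH2-2. The controls lay between the guides and were spread widely, and the groups did not overlap. The log2 fold change was 0.55 with sgEZH2-1 (SE 0.12, adjusted p = 0.00935) and -0.60 with sgEZH2-2 (SE 0.12, adjusted p = 0.0116). The difference between the guides was 1.15 (SE 0.11, adjusted p = 0.000104), the largest of the 38 tested members. Without the first control the rise with sgEZH2-1 was 0.35 (adjusted p = 0.0636). Without the second control the value for sgEZH2-2 was -0.37 (adjusted p = 0.0895), and without the third sgEZH2-2 library its adjusted p was 0.0520. SLC7A11 lies on chromosome 4 (138164097 to 138242349, minus strand).

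SLC1A4, a carrier of alanine, serine and cysteine, fell most steadily. It was at 93.7 and 88.9 CPM in the controls, 55.5, 56.2 and 50.1 with sgEZH2-1, and 63.3, 69.9 and 64.4 with sgEZH2-2. The 3 groups did not overlap, with sgEZH2-1 lowest. The log2 fold change was -0.76 (SE 0.073, adjusted p = 7.79e-05) with sgEZH2-1 and -0.47 (SE 0.072, adjusted p = 0.00282) with sgEZH2-2. Between the guides it differed by -0.29 (adjusted p = 0.0134), a call lost without the second sgEZH2-2 library (adjusted p = 0.0641). Both falls held without any single library. Its relative SLC1A5, the glutamine carrier, was lower in all 6 guide libraries, at 220 to 275 CPM, than in the controls at 308 and 283, but did not pass (-0.25 and -0.19, adjusted p = 0.0820 and 0.259). Without the third sgEZH2-1 library, its value with sgEZH2-1 was -0.31 (adjusted p = 0.0367).

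SLC1A1, the glutamate, aspartate and cysteine carrier of epithelia, rose with both guides. It was at 4.47 and 4.96 CPM in the controls, 7.96, 8.21 and 8.54 with sgEZH2-1, and 10.4, 11.0 and 9.53 with sgEZH2-2. Every guide library was above both controls. The log2 fold change was 0.80 (SE 0.13, adjusted p = 0.00209) and 1.13 (SE 0.13, adjusted p = 0.000541), and the guides differed by -0.32 (adjusted p = 0.0566). Both rises held without any single library. SLC1A3, another glutamate carrier, passed only between the guides (0.27, adjusted p = 0.00938), where sgEZH2-1 libraries had 59.0 to 64.9 CPM and sgEZH2-2 libraries 49.9 to 51.9, either side of the controls at 55.9 and 54.4. That call was lost without the second sgEZH2-1 library (adjusted p = 0.0525).

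SLC7A2, an inducible carrier of arginine and lysine, was nearly silent in the controls, with 1 count in each. It had 17, 23 and 20 counts with sgEZH2-1 and 12, 11 and 11 with sgEZH2-2. Its level was 21.1-fold that of the controls with sgEZH2-1 (exact 95% counting interval 5.59 to 178) and 12.4-fold with sgEZH2-2 (3.18 to 107), which cover counting error only. The adjusted p was 0.000200 and 0.00231. The constitutive carrier of the same amino acids, SLC7A1, was at -0.054 and -0.051 (adjusted p = 0.613 and 0.715), and at 149 and 138 CPM in the controls.

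SLC3A2, the heavy chain that carries SLC7A5 and SLC7A11 to the membrane, was at 764 and 671 CPM in the controls, 581, 671 and 695 with sgEZH2-1, and 544, 562 and 565 with sgEZH2-2. It fell with sgEZH2-2 (-0.37, SE 0.078, adjusted p = 0.0169), while sgEZH2-1 overlapped the controls (-0.14, adjusted p = 0.221). The fall was lost without the first control (-0.26, adjusted p = 0.147), or without the second or the third sgEZH2-2 library (adjusted p = 0.0513 and 0.0527). The guides differed by 0.22 (adjusted p = 0.0477), which did not hold without the second or the third sgEZH2-1 library or without any 1 of the sgEZH2-2 libraries (adjusted p from 0.100 to 0.134). SLC7A5, the most abundant member, was at 2064 and 1738 CPM in the controls, 1252, 1661 and 1839 with sgEZH2-1, and 1411, 1584 and 1620 with sgEZH2-2. The first sgEZH2-1 library was the lowest of the 8 and the third lay between the controls. Its log2 fold changes of -0.26 and -0.31 did not pass (SE 0.14 each; adjusted p = 0.203 and 0.216). Without that first library the value with sgEZH2-2 was the same to 2 decimals and passed (adjusted p = 0.0371).

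Among the carriers of small neutral amino acids, SLC38A1 was at 237 and 257 CPM in the controls, 281, 277 and 277 with sgEZH2-1, and 232, 222 and 223 with sgEZH2-2. It rose with sgEZH2-1 (0.17, SE 0.051, adjusted p = 0.0389) and was at -0.13 with sgEZH2-2 (adjusted p = 0.152), with a difference of 0.30 between the guides (SE 0.045, adjusted p = 0.00154). The rise kept its call only without the second control or the first sgEZH2-2 library, and was at 0.12 (adjusted p = 0.265) without the first control. SLC38A2, the carrier most often used as an amino acid shortage readout, was at 411 and 514 CPM in the controls and between 389 and 445 in the guide libraries, and passed with neither guide (-0.11 and -0.20, adjusted p = 0.396 and 0.166). Without the first control, its values of -0.25 and -0.35 passed (adjusted p = 0.0375 and 0.0171). SLC38A5 had 2 counts in the 2 controls, 13 in the sgEZH2-1 and 10 in the sgEZH2-2 libraries.

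The glycine carrier SLC6A9 was at 33.8 and 33.0 CPM in the controls, 33.8, 39.7 and 45.7 with sgEZH2-1, and 24.2, 31.2 and 31.5 with sgEZH2-2. It passed only between the guides (0.46, adjusted p = 0.0251). The call was lost without the second or the third sgEZH2-1 library (adjusted p = 0.0664 and 0.0732) or the first sgEZH2-2 library (0.0613). SLC7A8, a second light chain for large neutral amino acids, was at 3.27 and 2.67 CPM in the controls, 3.63, 2.19 and 2.94 with sgEZH2-1, and 4.69, 4.72 and 4.88 with sgEZH2-2. The sgEZH2-2 libraries lay above all others (0.68 against control, adjusted p = 0.0849), and the guides differed by -0.71 (adjusted p = 0.0265). This difference was lost without the second or the third sgEZH2-1 library or any 1 of the sgEZH2-2 libraries (adjusted p from 0.0517 to 0.0968). SLC7A7, a light chain for basic and neutral amino acids, had 0.0710 to 0.463 CPM over the 8 libraries.

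Of the 4 genes of the endoplasmic reticulum, 3 fell by a small amount with sgEZH2-1 and were close to control with sgEZH2-2. The 3 are 75% of this small group, against 9.51% of all genes lower with sgEZH2-1. HSPA5, the main chaperone of the lumen, was at 862 and 860 CPM in the controls, 746, 788 and 718 with sgEZH2-1, and 808, 860 and 817 with sgEZH2-2 (log2 fold change -0.20, adjusted p = 0.0217 with sgEZH2-1, and -0.056, adjusted p = 0.576 with sgEZH2-2). HSP90B1, its partner of the HSP90 family, was at 1197 and 1242 CPM in the controls, 1116, 1090 and 997 with sgEZH2-1, and 1259, 1262 and 1241 with sgEZH2-2 (-0.19, adjusted p = 0.0270, and 0.041, adjusted p = 0.712). XBP1, the transcription factor activated by splicing under stress, was at 102 and 103 CPM in the controls, 91.5, 86.9 and 87.7 with sgEZH2-1, and 103, 109 and 103 with sgEZH2-2 (-0.21, adjusted p = 0.0256, and 0.034, adjusted p = 0.775). For each of the 3 genes the sgEZH2-1 libraries lay below all others.

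HSP90B1 and XBP1 also differed between the guides (-0.23 and -0.24, adjusted p = 0.00710 and 0.00812), and HSPA5 narrowly did not (-0.14, adjusted p = 0.0515). HERPUD1, which serves the degradation of misfolded protein, was at 59.4 and 57.6 CPM in the controls and between 50.5 and 53.1 in the guide libraries, below both controls in each. Its values of -0.17 and -0.18 did not pass (adjusted p = 0.0664 and 0.0961). The falls of HSPA5, HSP90B1 and XBP1 with sgEZH2-1 were lost without either control (adjusted p from 0.0661 to 0.119) and without the third sgEZH2-1 library (0.0659, 0.0759 and 0.0833). Those of HSP90B1 and XBP1 were also lost without the second sgEZH2-1 library (0.0855 and 0.125), and that of HSP90B1 without the first or the third sgEZH2-2 library (0.0556 and 0.0506).

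These genes are well known targets of the unfolded protein response, and a shared promoter element is part of that background. The endoplasmic reticulum stress response element, CCAAT and CCACG with 9 free bases between them, was found on either strand of the RefSeq promoters of HSPA5, HSP90B1 and XBP1. These were the 3 of 35 members with it (8.57%), against 22 of 27305 promoters overall (0.0806%). The element is in capitals, on the strand of the gene, with 20 bases on either side; in the first HSP90B1 line it is read on the other strand. The lines show the element in the members that hold it, and they were chosen after the values were seen.
HSPA5: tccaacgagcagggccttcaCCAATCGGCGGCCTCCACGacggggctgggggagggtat
HSP90B1, nearer: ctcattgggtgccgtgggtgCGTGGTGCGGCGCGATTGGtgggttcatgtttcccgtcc
HSP90B1, farther: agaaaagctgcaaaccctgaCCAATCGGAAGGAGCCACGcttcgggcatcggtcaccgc
XBP1: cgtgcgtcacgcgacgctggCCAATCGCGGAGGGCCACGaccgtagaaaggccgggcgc

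They lie at chr9:125241371-125241429 (minus strand, element starting 66 bases before the start) for HSPA5 and at chr22:28800583-28800641 (minus strand, 52 bases) for XBP1. Those of HSP90B1 are chr12:103930301-103930359 and chr12:103930196-103930254 (plus strand, 89 and 194 bases before the RefSeq start). By the GENCODE limits both HSP90B1 stretches lie inside the gene, which starts at 103930107. In the list of 20 further genes of that response, described at the end, 4 of 19 promoters hold the element (CALR, CANX, CRELD2 and SERP1). Of the 5 genes of that list with a promoter that fell with sgEZH2-1, 1 holds it. No match in the other promoters says only that these letters are not in the window.

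The guides were then set against each other. The level of the controls does not enter this difference, but the control libraries stayed in the fit and in its estimate of the spread. Of the 38 tested members, 9 were higher with sgEZH2-1 and 6 were higher with sgEZH2-2 (23.7% and 15.8%), against 10.4% and 11.5% of all tested genes. Higher with sgEZH2-1 were DDIT3, CEBPG, PSAT1, MTHFD2, SLC1A3, SLC3A2, SLC6A9, SLC7A11 and SLC38A1. Higher with sgEZH2-2 were DDIT4, PHGDH, SLC1A4, SLC7A8, HSP90B1 and XBP1. DDIT3, DDIT4, PHGDH, PSAT1, MTHFD2, SLC7A11, SLC38A1, HSP90B1 and XBP1 kept this call without any single library. ATF4 was not among the 15.

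**Figure D4:**
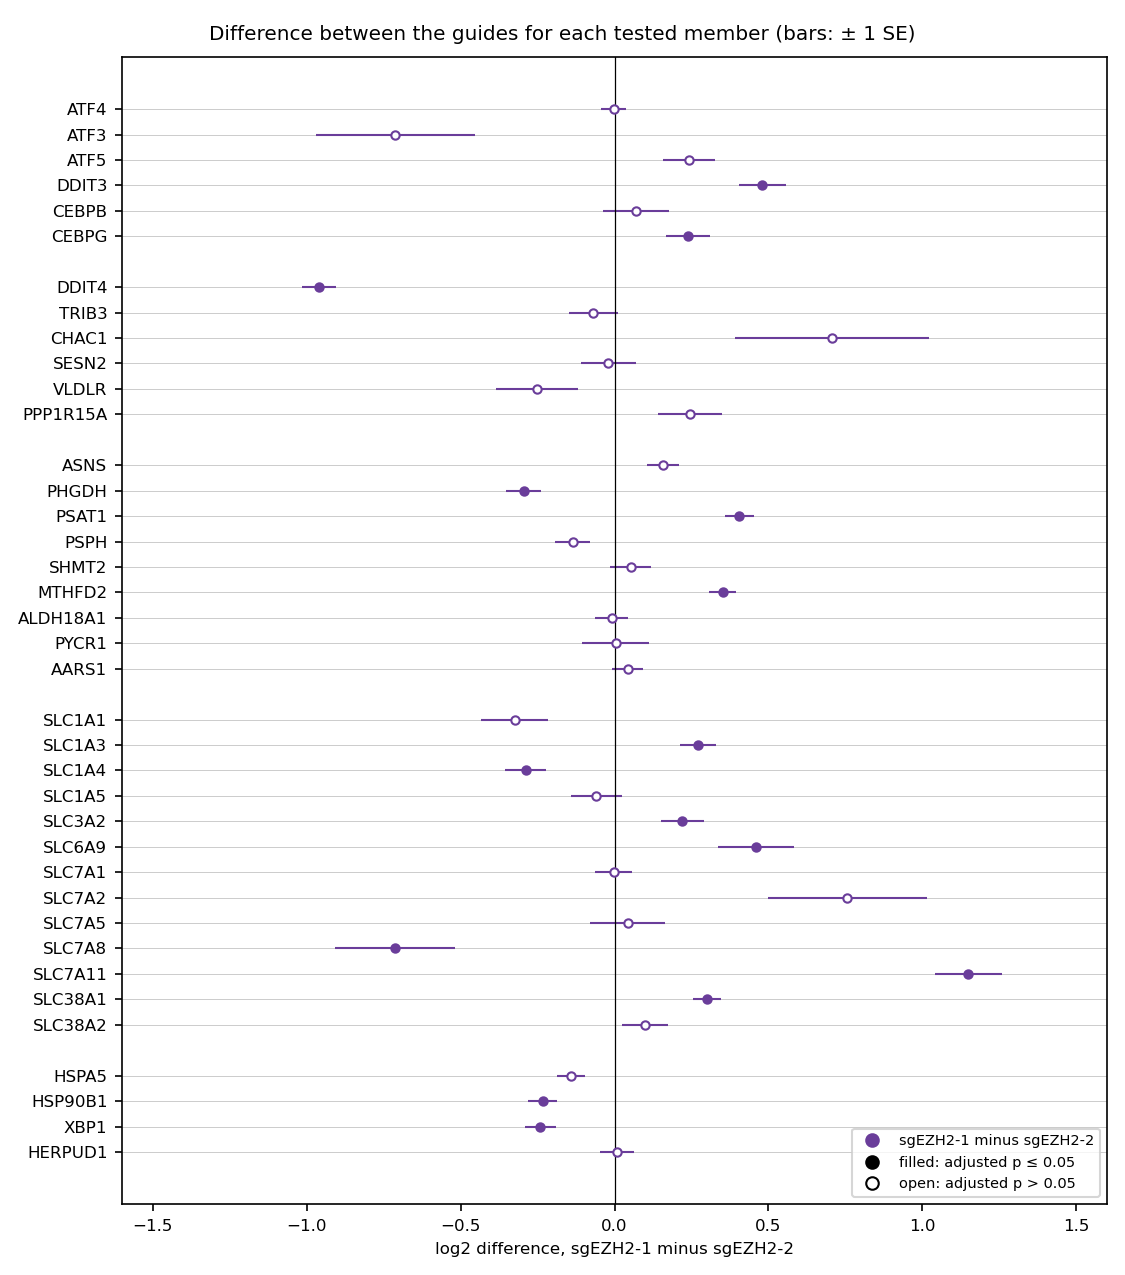
log2 difference between the guides, sgEZH2-1 minus sgEZH2-2, for the 38 tested members, with bars of 1 SE on either side and filled points where the adjusted p was at most 0.05. SLC7A11 is the farthest to the right at 1.15 and DDIT4 the farthest to the left at -0.96, while ATF4 lies at 0.

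With both guides pooled against control, in a fit that treats what separates the guides as spread, 3 members rose and 2 fell (7.89% and 5.26%), against 3.76% and 0.594% of all tested genes. The rises were VLDLR and SLC1A1, with log2 fold changes of 2.58 and 0.97, and SLC7A2. SLC7A2 passed the filter only through the guide libraries, so its rise, counted in that share, follows in part from being tested. Those that fell were ATF4 (-0.28, adjusted p = 0.0122) and SLC1A4. DDIT4 had a pooled value of -0.39 (adjusted p = 0.592) and SLC7A11 of 0.083 (adjusted p = 0.948), and for both genes the guides differed. These values come from the pooled fit and are not the mean of the values of the guides. VLDLR was called without any single library, and the other 4 were lost without either control, with adjusted p from 0.0716 to 0.196.

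Genes around the members were read from 8 lists, whose counts stand against 11.3% higher and 9.51% lower over all genes with sgEZH2-1, and 6.18% and 2.5% with sgEZH2-2. Among 15 genes of the eIF2 kinases, eIF2 and its exchange factor eIF2B, EIF2AK1, the heme-regulated kinase, fell with sgEZH2-1 (-0.22, adjusted p = 0.00836). PPP1R15B, the constitutive partner of the eIF2 phosphatase, rose with it (0.25, adjusted p = 0.0244). Both calls were lost without the first control (adjusted p = 0.0601 and 0.150), and that of PPP1R15B without the second sgEZH2-1 library (0.0767). The other 13 did not pass with sgEZH2-1. EIF2B1, a subunit gene of the exchange factor, was at -0.24 with sgEZH2-2 (adjusted p = 0.0718). The list's median was -0.013 with sgEZH2-1 and -0.082 with sgEZH2-2.

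Of 19 tested genes among 20 further ATF4 targets, 2 rose and 1 fell with sgEZH2-1, and 2 fell with sgEZH2-2. With sgEZH2-1 these are 10.5% higher and 5.26% lower, at or below the shares over all genes. With sgEZH2-2 they are 0% higher and 10.5% lower, against 6.18% and 2.5% of all genes. NUPR1, a stress-induced chromatin protein gene, was at 47.4 and 43.4 CPM in the controls, 28.0, 30.4 and 30.0 with sgEZH2-1, and 32.9, 37.9 and 35.7 with sgEZH2-2. It lay below both controls in all guide libraries and fell with each guide (-0.62 and -0.36, adjusted p = 0.000593 and 0.0249). JDP2, an AP-1 repressor gene, rose with sgEZH2-1 (0.59, adjusted p = 0.00240) and was at 0.37 with sgEZH2-2 (adjusted p = 0.0511). XPOT, which exports tRNA from the nucleus, fell with sgEZH2-2 (-0.24, adjusted p = 0.0202) and was at 0.065 with sgEZH2-1 (adjusted p = 0.429). With sgEZH2-2, NUPR1 and XPOT lost their calls without either control (adjusted p from 0.0526 to 0.174) and without the first sgEZH2-2 library (0.0799 and 0.0736). NUPR1 also lost it without the second sgEZH2-1 (0.0528) or the third sgEZH2-2 library (0.0770), and XPOT without the second sgEZH2-2 library (0.0777). The rise of JDP2 and the fall of NUPR1 with sgEZH2-1 held without any single library.

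Of 19 cytosolic tRNA synthetases other than AARS1, 2 fell with sgEZH2-1 and 6 fell with sgEZH2-2 (medians 0.030 and -0.12). EPRS1, for glutamate and proline, fell with each guide (-0.18 and -0.24, adjusted p = 0.0288 and 0.0159). IARS1, for isoleucine, fell with sgEZH2-2 (-0.24, adjusted p = 0.0109) and was at -0.048 with sgEZH2-1 (adjusted p = 0.520). QARS1, for glutamine, fell with sgEZH2-1 (-0.31, adjusted p = 0.00189) and was at -0.066 with sgEZH2-2 (adjusted p = 0.495). The falls of EPRS1 and IARS1 with sgEZH2-2 were lost without either control (adjusted p from 0.0623 to 0.109) or the second sgEZH2-2 library (0.0643 and 0.0517), and that of EPRS1 without the third (0.0653). The fall of EPRS1 with sgEZH2-1 was lost in 5 of 8 fits without 1 library, namely either control, the second or the third sgEZH2-1 library or the third sgEZH2-2 library (0.0510 to 0.159). Between the guides, 9 of the 19 were higher with sgEZH2-1 and 1 was higher with sgEZH2-2. These are 47.4% and 5.26%, against 10.4% and 11.5% of all tested genes.

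Among genes of the folate cycle, SHMT1, the cytosolic counterpart of SHMT2 (-0.40, adjusted p = 0.00374), and MTHFD1, a cytosolic enzyme of one-carbon transfer (-0.17, adjusted p = 0.0477), fell with sgEZH2-1. With sgEZH2-2 they were at -0.18 and -0.050 (adjusted p = 0.163 and 0.658). MTHFD1 kept its call only without the second control, with adjusted p up to 0.326 otherwise, while SHMT1 held without any single library. Of 13 other amino acid enzymes, 2 rose and 7 fell with sgEZH2-1, and 2 fell with sgEZH2-2. ASS1, of arginine synthesis, rose with sgEZH2-1 (0.50, adjusted p = 0.000538), and GLUL, glutamine synthetase, and GOT1, an aspartate aminotransferase, fell (-0.51 and -0.29, adjusted p = 0.000800 and 0.00273). With sgEZH2-2 these 3 were at -0.14, -0.031 and -0.074 (adjusted p = 0.226, 0.849 and 0.428).

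Of 16 tested genes among 23 other carriers, 5 rose and 2 fell with sgEZH2-1, and 4 rose and 1 fell with sgEZH2-2. Of these rises, SLC16A10, SLC43A1 and SLC43A3 (the last with sgEZH2-1 only) passed the filter only through guide libraries, so these counts are no support for a change of the list. SLC16A10, a carrier of aromatic amino acids, was at 0.568 and 0.783 CPM in the controls, 2.86, 2.87 and 4.06 with sgEZH2-1, and 3.80, 2.75 and 3.74 with sgEZH2-2. Its log2 fold changes were 2.25 and 2.32 (adjusted p = 0.000774 and 0.00128). Only 1 control library reached the filter's cutoff of 0.70 CPM, so it was tested through the guide libraries and its calls follow in part from that. SLC36A4, a carrier gene of proline and tryptophan, rose with sgEZH2-1 (0.90, adjusted p = 0.00268) and was at 0.52 with sgEZH2-2 (adjusted p = 0.0739). SLC43A3 had 2 control counts, 57 counts with sgEZH2-1 and 2 with sgEZH2-2. The exact 95% counting interval of its level relative to control was 5.30 to 169 with sgEZH2-1 and 0.0529 to 10.1 with sgEZH2-2.

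Of 20 genes that carry amino acid supply to mTORC1, 1 rose and 5 fell with sgEZH2-1, and 1 rose with sgEZH2-2. RRAGD, a Rag GTPase gene, was at 4.05 and 4.30 CPM in the controls, 13.6, 11.9 and 10.6 with sgEZH2-1, and 14.8, 14.0 and 15.2 with sgEZH2-2, and rose with each guide (1.52 and 1.81, adjusted p = 6.75e-05 and 4.60e-05). SESN3, a relative of SESN2, was at 40.1 and 43.9 CPM in the controls, 26.2, 23.3 and 23.2 with sgEZH2-1, and 50.2, 40.6 and 39.1 with sgEZH2-2. It fell with sgEZH2-1 (-0.79, adjusted p = 0.000839) and was at 0.045 with sgEZH2-2 (adjusted p = 0.858). WDR59, of the GATOR complexes, fell with sgEZH2-1 (-0.41, adjusted p = 0.00302).

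Of 20 further genes of the unfolded protein response, 1 rose and 6 fell with sgEZH2-1, where the list's median was 0.0064. Among those that fell were PDIA4, a disulfide isomerase gene (-0.27, adjusted p = 0.00210), CALR, the calcium-binding chaperone calreticulin (-0.22, adjusted p = 0.00689), and MANF, a secreted stress protein gene (-0.30, adjusted p = 0.00700). With sgEZH2-2 they were at -0.012, 0.040 and -0.075 (adjusted p = 0.909, 0.665 and 0.522). PDIA4, CALR and MANF differed between the guides as well (-0.25, -0.26 and -0.22, adjusted p = 0.00188, 0.00186 and 0.0183). Without the first control, the falls of CALR and MANF with sgEZH2-1 were lost (adjusted p = 0.0746 and 0.0570), and that of PDIA4 held without any single library.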

How the data were processed

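RNA was sequenced from 8 libraries of HSC-5 cells made with a stranded mRNA kit, per the labels' protocols. The table deposited by the authors holds whole-number read counts per gene, not normalized. FastQC, STAR, DESeq and the build hg38 are named, per the submitters' processing notes. For the counting tool, annotation, strand setting and versions, the sources used here give nothing. Column names show the group and no replicate number, so libraries are numbered by their place in the table, and 0 columns of library values were left unused.

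Genes were kept by edgeR's filterByExpr (minimum count 10) and scaled by TMM. The 3 groups were fitted together with edgeR 4.0.16 (R 4.3.3) by quasi-likelihood, with a 2-level fit for both guides pooled. Calls have an adjusted p (Benjamini-Hochberg, all 13124 tested genes) of at most 0.05. CPM (counts per 1000000) use TMM-scaled totals, and the SE is the log2 fold change divided by the root of F. The procedure was tested on simulated data. Alternatives were DESeq2 1.42.0, its size factors, no filter, only the groups compared, and leaving out each library.

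All members were accounted for. Values by library were given for ATF4 and for up to 5 members of each class with the smallest adjusted p in the fit of 3 groups, and for further members after their values were seen. Up to 3 genes of each pathway list with the smallest adjusted p against control were named. Some genes of the lists are not reported here. Members and lists were chosen with earlier results of these data known. Gene positions and exon lengths are from GENCODE v29 (GRCh38), and promoters are from RefSeq (GRCh38.p14). Totals were 12607952 to 15468597 counts, and intervals cover counting error only.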

Additional observations from a re-analysis of the deposited data

Results flagged for a closer look

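For 15 members the effects of the guides differed by the test of the difference itself, sgEZH2-1 minus sgEZH2-2 on the log2 scale (edgeR's quasi-likelihood test). The difference was positive for SLC7A11 (1.15), DDIT3 (0.48), SLC6A9 (0.459), PSAT1 (0.405), MTHFD2 (0.351), SLC38A1 (0.301), SLC1A3 (0.272), CEBPG (0.238) and SLC3A2 (0.22). It was negative for DDIT4 (-0.96), SLC7A8 (-0.712), PHGDH (-0.295), SLC1A4 (-0.288), XBP1 (-0.242) and HSP90B1 (-0.232). EZH2 was at 64.2% of control with sgEZH2-1 and 82.5% with sgEZH2-2, and its part in these differences was not tested.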

How the results depend on the processing

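Of the calls on members, 7 of 16 with sgEZH2-1, 4 of 9 with sgEZH2-2, 9 of 15 between the guides and 1 of 5 with both guides pooled held under every alternative run, and no call changed direction. Leaving out 1 library at a time gave 4 to 8 members higher and 4 to 8 lower with sgEZH2-1, 3 to 4 higher and 3 to 6 lower with sgEZH2-2, 5 to 11 higher and 5 to 6 lower between the guides, and 1 to 3 higher and 0 to 3 lower with both pooled. The count of 0 came without the first or the second control by edgeR, where 5 and 9 members were lower at an unadjusted p under 0.05 and DESeq2 called 1 and 2. Where a control was left out, the remaining one was assumed to vary like the other groups. With only the groups compared in the fit, 5 members were higher and 4 lower with sgEZH2-1; that fit has fewer libraries. For both guides pooled, DESeq2 called 4 lower, and the mean of the guides in the fit of 3 groups called 6 lower, DDIT4 among them (-0.47, adjusted p = 0.000382). The cause of these shifts was not tested. The call of HSPA5 between the guides passed with other size factors, DESeq2 and no filter (adjusted p = 0.0481, 0.0445 and 0.0487), and CEBPB with sgEZH2-1 passed by DESeq2 (0.0459). Without the filter the rise of SLC38A1 was lost (0.0559), and by DESeq2 the differences of CEBPG and SLC7A8 between the guides were lost (0.0832 and 0.0590). No paired analysis was possible because the columns carry no replicate numbers. Depth limits SLC7A2, SLC7A7 and SLC38A5, which had few counts in the controls. In the annotation, 8 members share over 10% of their exon bases with another gene, ATF5, CEBPB, SLC1A5 and PYCR1 among them. A named pseudogene exists for 8 members, SLC7A5 among them. The counts of such members are less certain.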
